A study of Mus musculus with 6 samples.

Results

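Interferon-stimulated genes are the genes that cells switch on when interferon reaches its receptors, and 44 of them were followed here in unstimulated bone marrow-derived macrophages (BMDMs) with and without ATP citrate lyase (Acly), the enzyme that makes cytosolic acetyl-CoA from citrate. The 44 genes were a list given by name, chosen without a threshold on their values. Like the other lists used here, it was chosen with earlier results of these data known. The 44 genes were among the 24562 gene symbols in the deposited count table. All 44 were found in the table and all 44 passed the filter on low counts, among 11470 genes tested. The control group held 3 libraries of BMDMs from Cre-negative Acly fl/fl littermates, labelled WT and Naive. The AclyM-KO group held 3 libraries of BMDMs from Acly fl/fl mice with Lyz2-Cre, labelled KO and Naive. The mice were on a C57Bl/6J background with loxP sites around an exon of Acly. The series entry names female mice, whereas the methods speak of adult mice of both sexes for in vitro work in general. Cre was driven by the Lyz2 locus, which is active in myeloid cells, and Lyz2 itself was lower in AclyM-KO libraries (log2 fold change -1.05). The study's methods describe in vitro replicates as technical replicates of bone marrow pooled from 3 mice, so p-values here measure the spread between libraries and need not cover the spread between mice.

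Type I interferons (the alpha and beta interferons) bind the receptor pair Ifnar1 and Ifnar2, and the kinases Jak1 and Tyk2 then activate ISGF3, a complex that holds Stat2 and Irf9. ISGF3 binds the interferon-stimulated response element in the promoters of its target genes. Interferon gamma binds Ifngr1 and Ifngr2 and acts through a different promoter element, the gamma-activated site. Macrophages without any infection keep a low level of many interferon-stimulated genes, a state often called tonic interferon signalling.

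Of the 44 genes, 35 had an entry in a table of RefSeq promoters (build GRCm38.p6, 250 bases before to 50 bases after each gene's start). The core of the interferon-stimulated response element, TTTC followed by 2 bases of any kind and TTTC again, was searched on both strands and was found in the promoters of 16 of the 35 genes (45.7%), against 3.99% of all 27025 genes with a promoter of this length. The core of the gamma-activated site, TTCNNNGAA, was found in 10 of the 35 (28.6%), against 9.55% of all genes. By role, the core of the interferon-stimulated response element was found in 2 of 2 nucleic acid sensors and 3 of 4 interferon-inducible GTPases with an entry, and in 0 of 3 antigen processing genes, counts too small to compare. A match gives letters in a window and does not show that a factor binds there. The stretches below are shown for the genes on which the results turn and for the best known members of the family. They run 5′ to 3′ on the gene's strand, and capitals mark the core of the response element or its reverse complement.
Oas1a (chr5:120907526-120907570, minus strand): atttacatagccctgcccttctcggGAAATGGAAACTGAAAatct
Oas3 (chr5:120777710-120777759, minus strand): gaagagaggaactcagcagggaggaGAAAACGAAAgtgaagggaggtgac
Stat2 (chr10:128270251-128270300, plus strand): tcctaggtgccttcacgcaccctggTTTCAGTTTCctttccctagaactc
Ifit1 (chr19:34640760-34640828, plus strand): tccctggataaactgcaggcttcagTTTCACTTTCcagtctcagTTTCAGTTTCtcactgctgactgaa
Ifit3 (chr19:34583348-34583431, plus strand): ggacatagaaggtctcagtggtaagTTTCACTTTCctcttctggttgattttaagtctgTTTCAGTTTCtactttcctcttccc
Isg15 (chr4:156200860-156200921, minus strand): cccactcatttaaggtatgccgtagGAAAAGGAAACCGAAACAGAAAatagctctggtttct
Gbp3 (chr3:142559974-142560029, plus strand): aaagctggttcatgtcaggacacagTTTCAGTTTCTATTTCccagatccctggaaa
Gbp7 (chr3:142530258-142530307, plus strand): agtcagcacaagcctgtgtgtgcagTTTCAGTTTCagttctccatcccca
Among the genes that passed the test, Oas1a, Oas3, Stat2, Gbp3 and Gbp7 carried the element, which was thus found in genes that were higher and in genes that were lower in AclyM-KO macrophages. Cmpk2, Oasl2, Ifi35 and Lgals3bp had no match in this window. No entry was given for Usp18.

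The deposited values are raw read counts per RefSeq transcript, and each gene was represented by its transcript with the highest total. The total over all transcripts lay between 19327459 and 23582992 in control libraries and was 19797218, 44507233 and 19867137 in AclyM-KO replicates 1, 2 and 3. Levels are given as CPM (counts scaled to the size of the library) after TMM normalization of the library sizes, and a log2 fold change is always AclyM-KO over control. As a check of the labels, the targeted gene Acly had 1072, 2617 and 1127 counts in AclyM-KO replicates 1, 2 and 3 and 2424, 3117 and 2614 counts in controls, a log2 fold change of -1.25 on normalized counts. Of 8 macrophage markers, all were above the filter, and their summed level was between 23755 and 24583 CPM in control and between 15082 and 17585 CPM in AclyM-KO libraries, mostly through Lyz2. Besides Lyz2, Mertk (log2 fold change -0.67, edgeR adjusted p = 0.00202) and Csf1r (-0.48, adjusted p = 0.0391, and -0.30 without AclyM-KO replicate 2) were lower without overlap, so that 3 of the 8 passed as lower, beside 5.65% of all genes tested. The rest overlapped between the groups and did not pass, namely Fcgr1 (-0.18), Itgam (0.001), Cd68 (0.009), Adgre1 (0.07) and Mrc1 (0.14). Of plasmacytoid dendritic cells, which make much type I interferon, Klk1 was at 0 in all libraries, Siglech reached at most 0.611 CPM and Ccr9 at most 0.174 CPM. The list of 6 such markers summed to between 251 and 269 CPM in control and between 222 and 232 CPM in AclyM-KO libraries, nearly all from Tcf4, which passed the test as lower (log2 fold change -0.37, edgeR adjusted p = 0.00665), and from Bst2, which is itself one of the 44 genes. Cox6a2 of this list was higher at a low level, with 0.673 to 1.27 CPM in control and 1.83 to 2.36 CPM in AclyM-KO libraries (log2 fold change 1.05, edgeR adjusted p = 0.0449), and the traces of Siglech were higher without overlap. Cd4 was the 1 of 6 T cell markers above the filter and was lower (log2 fold change -0.55, edgeR adjusted p = 0.016), while Cd3e and Cd3g were at 0 in all libraries. Itgax, the 1 of 6 conventional dendritic cell markers above the filter, had 13.4, 19.6 and 16.9 CPM in control and 21.9, 29.5 and 19.7 CPM in AclyM-KO libraries, highest in AclyM-KO replicate 2 as many of the 44 genes were (log2 fold change 0.53, edgeR adjusted p = 0.0629). The 6 NK cell markers together gave at most 0.541 CPM in any library. The part of these markers in the results was not tested.

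Before any comparison of the groups, one library stood apart in these genes. AclyM-KO replicate 2 had the highest level of all 6 libraries in 33 of the 44 genes (75.0%), whereas it was the highest in 28.7% of all genes tested. Relative to the mean of AclyM-KO replicates 1 and 3, its level was higher in 39 of the 44 genes, with a median ratio of 1.40-fold against 1.01-fold over all genes tested. The ratio reached 2.42-fold in Xaf1, an inhibitor of the apoptosis inhibitor Xiap, 2.10-fold in Usp18, 2.07-fold in Rtp4 and 2.03-fold in Isg15. It was below 1 in Irf1 (0.801-fold), Gbp2 (0.936-fold), Samhd1 (0.955-fold), Gbp7 (0.962-fold) and Lgals3bp (0.998-fold). At the other end, control replicate 2 was the lowest control library in 35 of the 44 genes (79.5%), against 32.6% of all genes. The mean over the 44 genes of log2 CPM relative to each gene's mean was 0.01, -0.22 and -0.07 in the controls (replicates 1, 2 and 3) and -0.16, 0.40 and 0.04 in the AclyM-KO group (replicates 1, 2 and 3). AclyM-KO replicate 1 thus lay below control replicates 1 and 3, and the groups overlapped in this mean. Replicates varied more in these genes than in others, with a median SD of log2 CPM of 0.146 in control and 0.310 in AclyM-KO libraries, against 0.090 and 0.148 over all genes tested. AclyM-KO replicate 2 also had 2.18 times the mean total count of the other 5 libraries. Thinned to 11386212 counts (from 25814853 on the basis of 1 transcript per gene), it left the same 7 genes higher and the same 3 lower as reported next, and whatever else set this library apart was not tested.

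**Figure D1:**
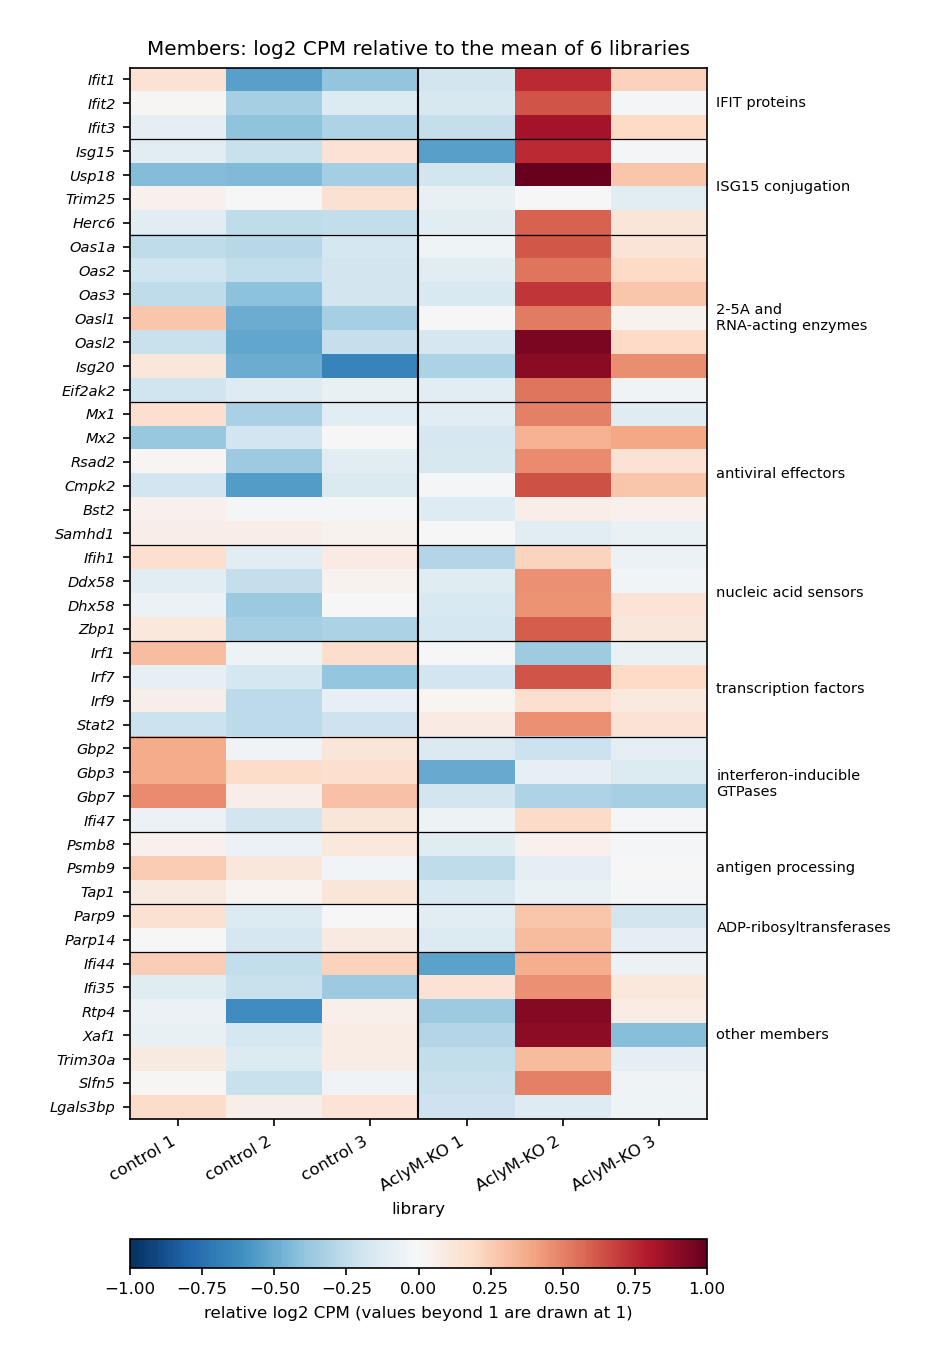
Level of the 44 interferon-stimulated genes in each of the 6 libraries, as log2 CPM relative to the gene's mean over the libraries (columns are libraries, rows are genes grouped by role, red is above and blue below the mean, values beyond 1 are drawn at 1). The column of AclyM-KO replicate 2 is the highest of its row in 33 of 44 genes, while the GTPases Gbp2, Gbp3 and Gbp7 are higher in the 3 control libraries.

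Without stimulation, AclyM-KO macrophages had more mRNA of 7 and less mRNA of 3 of the 44 interferon-stimulated genes. The genes that were higher were Usp18, Oas1a, Oas3, Oasl2, Cmpk2, Stat2 and Ifi35, by 1.38- to 1.98-fold, and those that were lower were Gbp3, Gbp7 and Lgals3bp. In bulk RNA, fewer cells that express a gene and less RNA per cell cannot be told apart. The genes were tested with the quasi-likelihood method of edgeR, adjusted by Benjamini-Hochberg over all 11470 genes and a threshold of 0.05. Over all genes tested, 12.3% passed it, 6.7% as higher and 5.65% as lower. The median log2 fold change was 0.30 over the 44 genes and 0.00 over all genes, with 31 of the 44 above 0 and 13 below. The 3 libraries of one group did not overlap with those of the other in 15 of the 44 genes, 9 higher and 6 lower in AclyM-KO macrophages, and over all genes this held for 16.3% and 16.6%, respectively. When AclyM-KO replicate 2 was left out, the same 7 genes were higher and the same 3 lower, while the share of all genes past the threshold was 18.5% (9.56% higher, 8.92% lower), and the median over the 44 genes dropped to 0.05. AclyM-KO replicates 1 and 3 were both above all controls in 9 of the 44 genes (20.5%, against 23.0% of all genes) and both below all controls in 8 (18.2%, against 23.2%). Fewer genes were left when a control library was taken out, namely Stat2 as higher and Gbp7 as lower without control replicate 1, 2 or 3, where 3.13%, 3.25% and 3.31% of all genes were higher and 2.02%, 2.44% and 2.1% lower. DESeq2 called 10 of the 44 genes higher and 3 lower (6.02% and 5.23% of all genes), and limma-voom 9 and 3 (9.68% and 9.39% of all genes). Without AclyM-KO replicate 3, Stat2 and Ifi35 were higher and Gbp7 and Lgals3bp lower (5.41% and 3.66% of all genes), and without AclyM-KO replicate 1, 16 genes were higher and Gbp7 alone lower (7.54% and 6.65% of all genes).

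**Figure D2:**
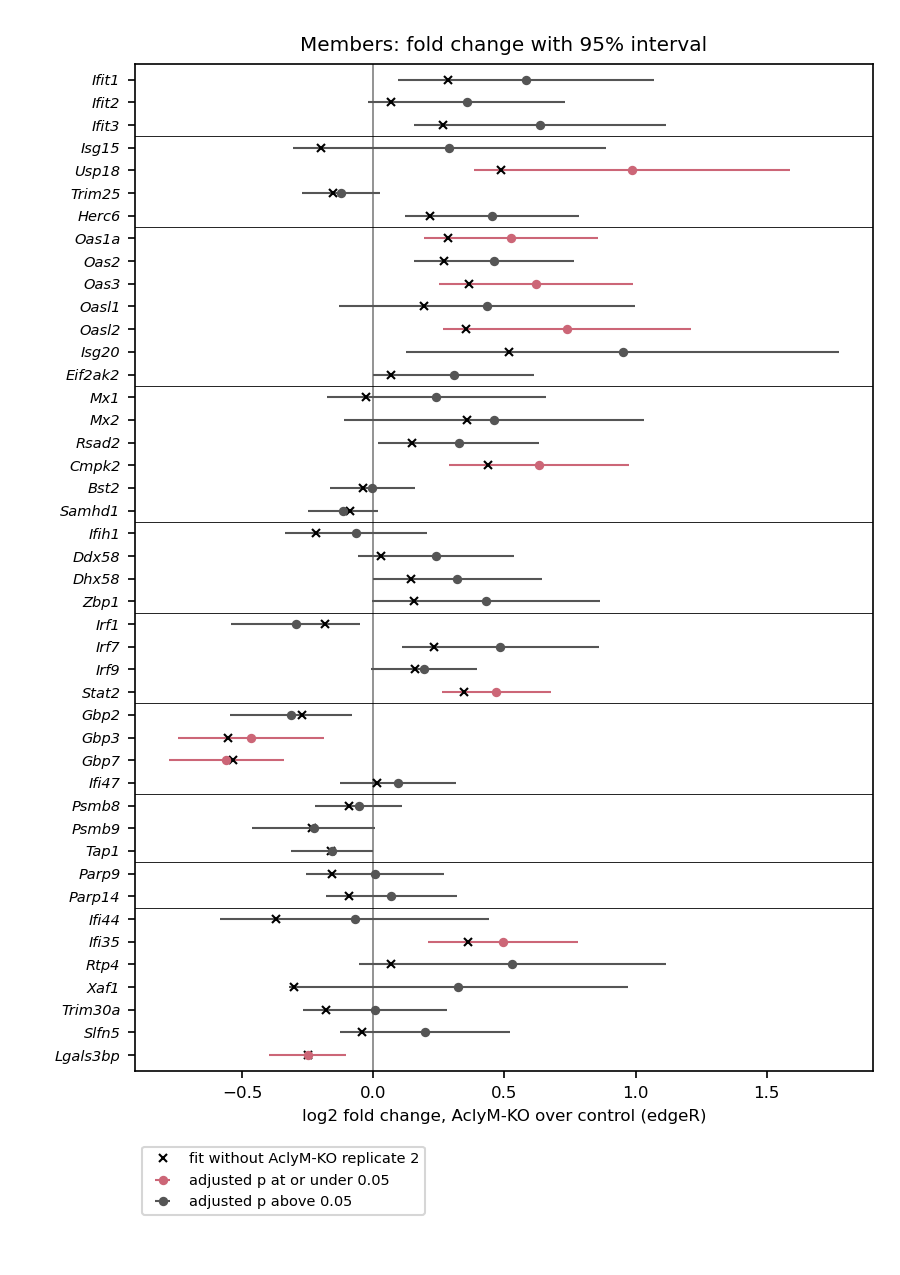
Fold change of the 44 genes between AclyM-KO and control BMDMs, on the log2 scale, with the 95% interval of edgeR's fit (points and bars, red where the adjusted p was at or under 0.05) and the value without AclyM-KO replicate 2 (crosses). The median of the points is 0.30 and that of the crosses is 0.05, and the 3 genes past the threshold on the lower side, Gbp3, Gbp7 and Lgals3bp, lie below 0 in both fits.

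The clearest of the higher genes was Stat2, the STAT protein that is particular to type I and type III interferon signalling. Its level was 93.3, 90.1 and 93.6 CPM in the controls and 114, 148 and 119.8 CPM in the AclyM-KO group, here and in what follows in the order of replicates 1, 2 and 3. All AclyM-KO libraries were above all controls, and replicate 2 was the highest. The means were 92.3 ± 1.95 and 127 ± 18.2 CPM (SD, n = 3), which gave a log2 fold change of 0.47 (standard error, SE, 0.095, edgeR adjusted p = 0.00808). Without AclyM-KO replicate 2 the log2 fold change was 0.34 (edgeR adjusted p = 3.21e-04), and leaving out any 1 library gave 0.34 to 0.54 with an adjusted p of at most 0.0491. Irf9, which brings ISGF3 to DNA, had 56.0, 44.8 and 50.9 CPM in control and 54.7, 60.6 and 57.8 CPM in AclyM-KO libraries. These values overlapped, and the log2 fold change of 0.19 did not pass the test (edgeR adjusted p = 0.2). Irf9 shares exon sequence on the same strand with Rnf31, so reads of these genes may be mixed. Irf7, the factor that amplifies type I interferon production, had 33.3, 31.1 and 26.9 CPM in control and 30.8, 54.7 and 40.6 CPM in AclyM-KO libraries, which also overlapped (log2 fold change 0.48, edgeR adjusted p = 0.0902, and 0.23 without replicate 2). Its exons overlap those of Phrf1 on the opposite strand. Irf1, a factor that responds strongly to interferon gamma, went the other way with 76.9, 59.6 and 69.9 CPM in control and 61.6, 48.3 and 59.0 CPM in AclyM-KO libraries (log2 fold change -0.30, edgeR adjusted p = 0.112, and -0.18 without replicate 2). It was the transcription factor of the 4 in which AclyM-KO replicate 2 was lowest.

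The enzymes that act on RNA held 3 of the 7 higher genes. The 2′-5′-oligoadenylate synthetases (Oas) are switched on by double-stranded RNA and make the short oligoadenylates that activate RNase L. Oas1a, Oas3 and Oasl2 passed the test, 3 of 7 genes in this group, beside 6.7% higher among all genes tested. None of the 3 passed when a control library or AclyM-KO replicate 3 was left out. Oas3 had 52.7, 47.3 and 55.6 CPM in control and 56.7, 104 and 76.5 CPM in AclyM-KO libraries. All AclyM-KO libraries were above the controls, although replicate 1 was only just above the highest of them. The log2 fold change was 0.62 (SE 0.170, edgeR adjusted p = 0.0345), and 0.37 without AclyM-KO replicate 2 (adjusted p = 0.0149). Oasl2 had 63.4, 51.7 and 63.2 CPM in control and 66.0, 142 and 85.3 CPM in AclyM-KO libraries. Replicate 2 alone was more than double any control, and the log2 fold change of 0.74 (SE 0.216, edgeR adjusted p = 0.0459) was 0.35 without it (adjusted p = 0.0162). DESeq2 did not call Oasl2 (adjusted p = 0.192). Oas1a has near-identical copies such as Oas1g, and its count is uncertain because the authors removed reads of low mapping quality, which include those that match several copies. It had 24.3, 23.9 and 25.7 CPM in control and 28.1, 44.9 and 31.8 CPM in AclyM-KO libraries (log2 fold change 0.52, SE 0.152, edgeR adjusted p = 0.0438), and without AclyM-KO replicate 2 its log2 fold change was 0.29 (adjusted p = 0.0407). Oas2 did not overlap between the groups either, with 27.6, 26.7 and 27.9 CPM against 29.3, 45.9 and 36.5 CPM, but its adjusted p in edgeR was 0.0523 (log2 fold change 0.46, and 0.27 without AclyM-KO replicate 2). DESeq2 (adjusted p = 0.0279) and limma-voom (0.0262) called Oas2 higher, as did edgeR with the replicate block (0.031) and without the filter on low counts (0.012). The remaining genes of the group overlapped between the groups. Isg20, an exonuclease that degrades single-stranded RNA, was near the lower end of detection, with 0.902 to 1.73 CPM in control and 1.22 to 3.17 CPM in AclyM-KO libraries (log2 fold change 0.95, edgeR adjusted p = 0.127, and 0.52 without AclyM-KO replicate 2). Eif2ak2, the kinase PKR that stops translation on sensing double-stranded RNA, had 75.2, 79.0 and 81.8 CPM in control and 80.3, 125 and 84.3 CPM in AclyM-KO libraries (log2 fold change 0.31, edgeR adjusted p = 0.184), and 0.07 on the log2 scale without AclyM-KO replicate 2. In all 7 genes of this group, AclyM-KO replicate 2 was the highest of the 6 libraries.

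Isg15 is a ubiquitin-like protein that is joined to other proteins by ligases such as Herc6 and removed by Usp18, and Usp18 also sits on Ifnar2 and damps signalling. Usp18 had 7.37, 7.32 and 7.85 CPM in control and 8.79, 22.0 and 12.2 CPM in AclyM-KO libraries. The controls lay close together, and the AclyM-KO libraries were all above them but spread from 8.79 to 22.0 CPM. This was the largest log2 fold change of the 44 genes, at 0.99 (SE 0.275, edgeR adjusted p = 0.0374), a 1.98-fold difference that was 0.49 on the log2 scale without AclyM-KO replicate 2 (adjusted p = 0.0468). Herc6 had 34.7, 31.5 and 31.7 CPM in control and 34.8, 56.7 and 40.7 CPM in AclyM-KO libraries. Control replicate 1 and AclyM-KO replicate 1 were nearly equal, and the log2 fold change of 0.45 did not pass (edgeR adjusted p = 0.0738) and was 0.22 without AclyM-KO replicate 2. DESeq2 (adjusted p = 0.0399) and limma-voom (0.0488) called Herc6 higher, as did edgeR with the replicate block (0.0489) and without the filter on low counts (0.0156). Isg15 itself overlapped between the groups, with 7.18, 6.58 and 8.57 CPM in control and 5.22, 13.1 and 7.68 CPM in AclyM-KO libraries. AclyM-KO replicate 1 was the lowest and replicate 2 the highest of all 6, and the log2 fold change of 0.29 became -0.20 without AclyM-KO replicate 2. Trim25, a ubiquitin ligase that acts on the RNA sensor RIG-I, overlapped too, with means of 282 CPM in control and 259 CPM in AclyM-KO libraries (log2 fold change -0.12, edgeR adjusted p = 0.271).

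**Figure D3:**
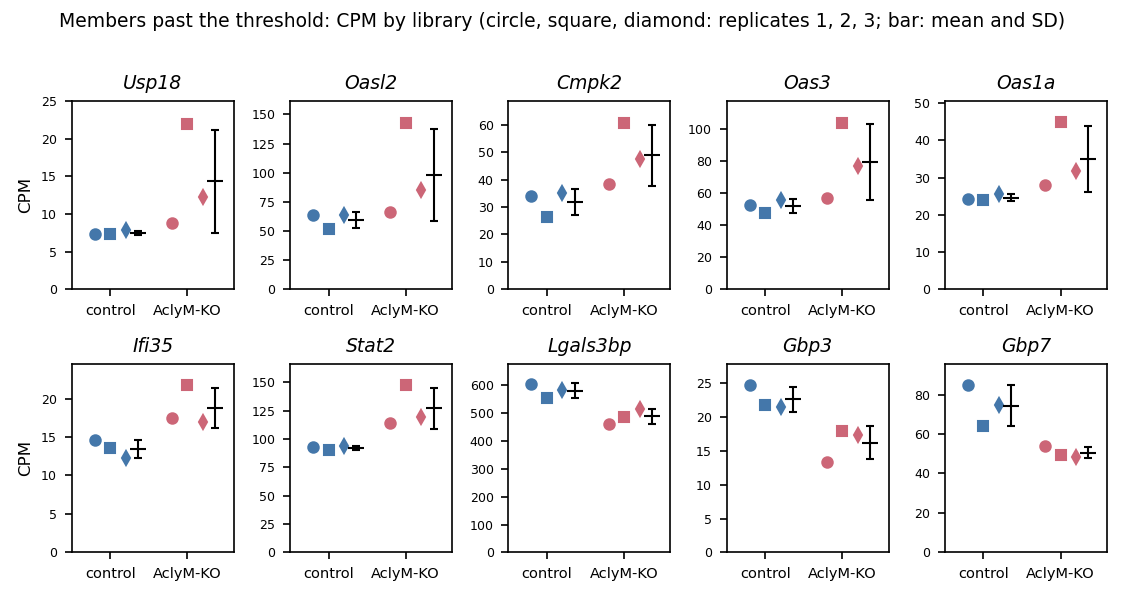
CPM of the 10 interferon-stimulated genes past the threshold in each library (each panel starts at 0, symbols are replicates 1, 2 and 3 of each group, black bars are the mean and SD, n = 3). In Usp18, Oas3 and Oasl2 the square of AclyM-KO replicate 2 lies far above the other libraries, with 22.0, 104 and 142 CPM, while in Gbp7 the AclyM-KO libraries sit between 48.5 and 53.7 CPM, below all controls.

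Among the antiviral effectors, Cmpk2 passed the test and the other 5 did not. Cmpk2, a mitochondrial nucleotide kinase that lies next to Rsad2 in the genome, had 34.2, 26.5 and 35.3 CPM in control and 38.6, 60.8 and 47.5 CPM in AclyM-KO libraries. The groups did not overlap, and the log2 fold change was 0.63 (SE 0.157, edgeR adjusted p = 0.0229) and 0.44 without AclyM-KO replicate 2. Rsad2, which encodes viperin, had 122, 93.6 and 112 CPM in control and 107, 167 and 133 CPM in AclyM-KO libraries, and here the groups overlapped (log2 fold change 0.33, edgeR adjusted p = 0.159, and 0.15 without AclyM-KO replicate 2). Bst2, or tetherin, which holds budding virus at the membrane, had almost the same level in both groups, with 96.6 ± 2.20 CPM in control and 96.2 ± 6.93 CPM in AclyM-KO libraries (SD, n = 3) and a 95% interval of the log2 fold change from -0.17 to 0.16. Samhd1, which breaks down deoxynucleotides, had 394, 395 and 385 CPM in control and 374, 350.3 and 360.0 CPM in AclyM-KO libraries. All 3 AclyM-KO values were lower, but the difference was small (log2 fold change -0.11, edgeR adjusted p = 0.255). Mx1 and Mx2, GTPases that trap viral nucleocapsids, are listed as non-coding transcripts in the table, and laboratory strains such as C57Bl/6 are known to carry defective copies. Their log2 fold changes were 0.24 (adjusted p = 0.46) and 0.46 (adjusted p = 0.289), at 9.79 to 17.6 CPM for Mx1 and 1.55 to 2.79 CPM for Mx2 over the 6 libraries.

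The IFIT proteins bind foreign RNA and keep it from being translated, and none of the 3 passed the test in edgeR. At an unadjusted p under 0.05, 2 of the 3 were higher, beside 13.9% higher among all genes tested. DESeq2 called 1 of the 3, Ifit3, and limma-voom called 0. Ifit1 had 29.5, 18.2 and 20.1 CPM in control and 23.3, 44.8 and 31.1 CPM in AclyM-KO libraries. Control replicate 1 lay above AclyM-KO replicate 1, and the log2 fold change was 0.58 (edgeR adjusted p = 0.115) and 0.28 without AclyM-KO replicate 2. Ifit3, whose count is uncertain in the same way because of its copy Ifit3b, had 20.3, 16.3 and 17.4 CPM in control and 18.3, 38.7 and 24.8 CPM in AclyM-KO libraries (log2 fold change 0.63, edgeR adjusted p = 0.0836, and 0.27 without AclyM-KO replicate 2). Ifit2 had 87.1, 68.4 and 78.5 CPM in control and 77.4, 134 and 85.3 CPM in AclyM-KO libraries (log2 fold change 0.36, edgeR adjusted p = 0.206), and its log2 fold change was 0.07 without AclyM-KO replicate 2. In each of the 3 genes replicate 2 of the AclyM-KO group was the highest and replicate 2 of the control group the lowest of its group.

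The sensors of foreign nucleic acid likewise overlapped between the groups. Of Ddx58 (the RNA sensor RIG-I), Ifih1 (MDA5), Dhx58 (LGP2) and Zbp1, 0 of 4 passed the test in edgeR in either direction, 0 had an unadjusted p under 0.05, and 0 were called by DESeq2 or by limma-voom. Ddx58 had 64.2, 59.0 and 71.2 CPM in control and 63.8, 95.6 and 68.1 CPM in AclyM-KO libraries (log2 fold change 0.24, 95% interval -0.06 to 0.54, and 0.03 without AclyM-KO replicate 2). Replicate 2 was the one AclyM-KO library above the controls. The same was true of Ifih1, with 58.8, 48.4 and 55.7 CPM in control and 42.7, 61.2 and 50.3 CPM in AclyM-KO libraries (log2 fold change -0.07, 95% interval -0.34 to 0.20, and -0.22 without AclyM-KO replicate 2). Dhx58 had 33.6, 27.1 and 35.1 CPM in control and 31.5, 48.1 and 38.6 CPM in AclyM-KO libraries, and Zbp1 had 10.2 to 13.9 CPM in control and 11.4 to 19.8 CPM in AclyM-KO libraries. Their log2 fold changes were 0.32 (edgeR adjusted p = 0.185) and 0.43 (edgeR adjusted p = 0.188), or 0.14 and 0.16 without AclyM-KO replicate 2, and in all 4 sensors AclyM-KO replicate 2 was the highest library.

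The interferon-inducible GTPases were the role group with the most lower genes, 2 of 4 beside 5.65% lower among all genes tested, and Lgals3bp was the only other lower gene of the 44. Guanylate-binding proteins (Gbp) coat intracellular bacteria and parasites and their vacuoles, and they respond above all to interferon gamma. Gbp7 had 84.7, 63.9 and 74.7 CPM in control and 53.7, 49.2 and 48.5 CPM in AclyM-KO libraries. Every AclyM-KO library was below every control, and replicate 2 lay between the others. The mean fell from 74.4 ± 10.4 to 50.5 ± 2.84 CPM (SD, n = 3), a log2 fold change of -0.56 (SE 0.101, edgeR adjusted p = 0.00473), and leaving out any 1 library gave -0.66 to -0.46 with an adjusted p of at most 0.0314. Gbp3 had 24.7, 21.7 and 21.5 CPM in control and 13.4, 18.0 and 17.4 CPM in AclyM-KO libraries (log2 fold change -0.47, SE 0.127, edgeR adjusted p = 0.0345). The groups did not overlap, and without AclyM-KO replicate 2 the log2 fold change was -0.55 (adjusted p = 0.0034). Gbp2 had 52.5, 39.5 and 44.0 CPM in control and 36.6, 34.9 and 38.0 CPM in AclyM-KO libraries, again without overlap, and its log2 fold change of -0.31 missed the threshold (edgeR adjusted p = 0.0785). Gbp2, Gbp3 and Gbp7 lie next to each other on chromosome 3 (142530336 to 142638008 from the start of Gbp7 to the end of Gbp2, mm10) and resemble each other, so reads that fit more than 1 copy could be missing from their counts. The fourth gene, Ifi47, belongs to the immunity-related GTPases on chromosome 11 and overlapped between the groups, with 43.6 ± 4.70 CPM in control and 46.3 ± 4.28 CPM in AclyM-KO libraries (SD, n = 3, log2 fold change 0.09, edgeR adjusted p = 0.604).

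The 3 antigen processing genes were all slightly lower in value, and none passed the test in edgeR, with 0 called by DESeq2 or limma-voom. At an unadjusted p under 0.05, 1 gene was lower, beside 13.3% lower among all genes tested. Tap1, which pumps peptides into the endoplasmic reticulum, had 78.2, 75.0 and 79.9 CPM in control and 66.0, 70.2 and 72.6 CPM in AclyM-KO libraries. The groups did not overlap, and the log2 fold change was -0.16 (edgeR adjusted p = 0.178). The immunoproteasome subunits Psmb8 and Psmb9 had log2 fold changes of -0.06 (adjusted p = 0.695) and -0.23 (adjusted p = 0.194). Psmb9 and Tap1 overlap on opposite strands. In these genes AclyM-KO replicate 2 was the highest of the 6 libraries in 0 of 3, with a median ratio of 1.02-fold to the other AclyM-KO libraries.

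Of the other members, Ifi35 was higher and Lgals3bp lower. Ifi35, a leucine zipper protein that pairs with Nmi, had 14.6, 13.5 and 12.3 CPM in control and 17.5, 21.8 and 17.0 CPM in AclyM-KO libraries. The groups were separate, and the log2 fold change of 0.49 (SE 0.131, edgeR adjusted p = 0.03) was 0.36 without AclyM-KO replicate 2. Lgals3bp, a secreted glycoprotein that binds galectins, was the most abundant of the 44 genes, with 605, 553 and 583 CPM in control and 461, 487 and 516 CPM in AclyM-KO libraries. All AclyM-KO values were below all controls, and the log2 fold change was -0.25 with or without AclyM-KO replicate 2 (SE 0.068, adjusted p = 0.0333 with it, in edgeR), and it missed the threshold with scaling by total counts alone (edgeR adjusted p = 0.058). Rtp4, a chaperone of membrane receptors, had 36.2, 24.4 and 39.0 CPM in control and 29.2, 71.2 and 39.7 CPM in AclyM-KO libraries. Replicate 2 was far above the rest, and the log2 fold change was 0.53 with it (edgeR adjusted p = 0.23) and 0.07 without it. Slfn5, a member of the Schlafen family, had 312, 266 and 303 CPM in control and 265, 439 and 302 CPM in AclyM-KO libraries (log2 fold change 0.20, edgeR adjusted p = 0.431, and -0.045 without AclyM-KO replicate 2). Parp9 and Parp14, ADP-ribosyltransferases, were at log2 fold changes of 0.01 and 0.07, with adjusted p-values of 0.984 and 0.755, and exons of Parp9 overlap those of Dtx3l on the opposite strand. Xaf1, Trim30a and Ifi44 had log2 fold changes of 0.32, 0.01 and -0.07, with adjusted p-values between 0.526 and 0.982, and Xaf1 was at -0.30 without AclyM-KO replicate 2.

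**Figure D4:**
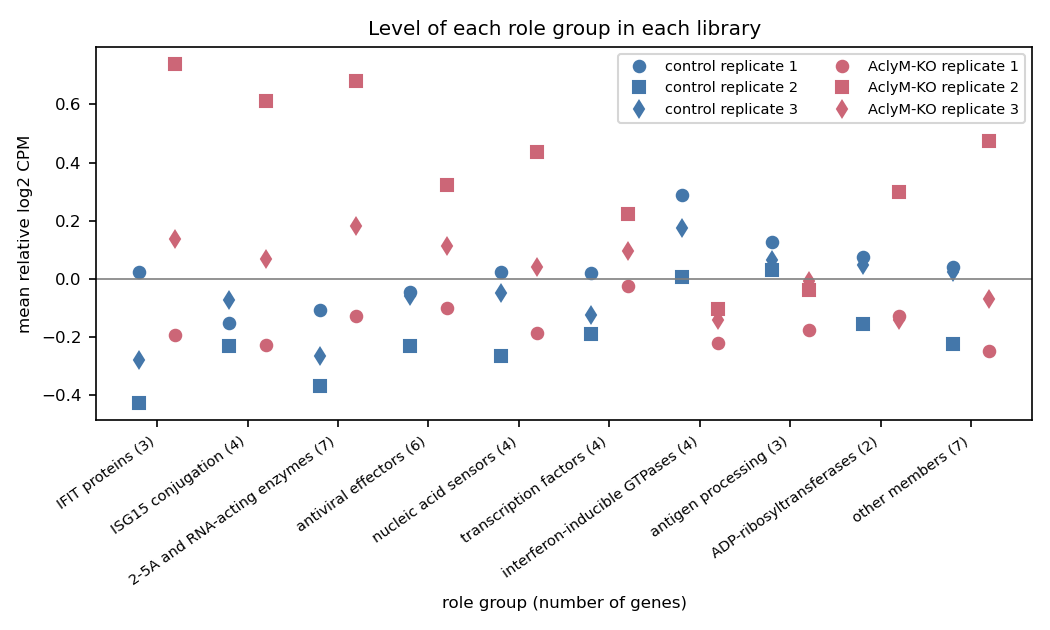
Mean level of each role group in each library, as log2 CPM relative to each gene's mean over the 6 libraries (y axis), with the number of genes in brackets and 1 symbol per library. For the 3 IFIT genes AclyM-KO replicate 2 is at 0.74 and the other AclyM-KO libraries are at -0.19 and 0.14, whereas for the 4 GTPases the AclyM-KO libraries are at -0.22, -0.10 and -0.14 and the controls at 0.29, 0.01 and 0.17.

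Per transcript length, the 44 genes covered a wide range of levels. In RPKM (CPM per kilobase of transcript) averaged over the 6 libraries, Lgals3bp was first with 229 RPKM, followed by Samhd1 with 189 RPKM, and the ranges of these over the 6 libraries overlapped. Bst2 came next with 122 RPKM, below both without overlap. Slfn5 (52.6 RPKM) followed, again without overlap, and Psmb8 (50.5 RPKM) and Trim25 (48.4 RPKM) overlapped with it or with each other. At the lower end were Oasl1 (1.69 RPKM), Isg20 (1.59 RPKM) and Mx2 (0.878 RPKM). From Psmb8 downwards, the range of each gene overlapped with that of the gene above it except at Ifi44 (2.17 RPKM), which lay below Xaf1 without overlap. Of the 44 genes, 33 were above 9.64 RPKM, the median of all tested genes with a known length. The classical markers of interferon exposure were thus not at the top of the order, as Isg15 had 10.7 RPKM and Ifit1 10.5 RPKM.

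The genes that act before the interferon-stimulated genes were taken from a list of 51 genes of interferon signalling, of which 36 passed the filter. In AclyM-KO macrophages 5 of the 36 were lower, Ifngr1, Ifnar2, Irf8, Ikbke and Mavs, and 0 were higher in edgeR. At an unadjusted p under 0.05 there were 10 lower and 1 higher, DESeq2 called 6 lower and 0 higher, and limma-voom called 6 lower and 0 higher. Of all genes, 13.3% were lower and 13.9% higher at an unadjusted p under 0.05, and DESeq2 called 5.23% and limma-voom 9.39% lower. The share of all genes tested that passed as lower was 5.65%. The median log2 fold change of the 36 was -0.05. The groups did not overlap in 12 of these genes, 11 lower and 1 higher in AclyM-KO macrophages (16.6% and 16.3% of all genes). AclyM-KO replicate 2 was the highest library in 6 of the 36 (16.7%, against 28.7% of all genes) and the lowest of its group in 23 (63.9%), against 38.2% of all genes tested.

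Of the 13 interferon genes, 11 had 0 counts in all 6 libraries. Ifnb1, the gene of interferon beta, had 1 count in AclyM-KO replicate 3, and Ifnk had 1 count in control replicate 3 and 3 counts in AclyM-KO replicate 2. A count of 0 allows up to 3 counts, which is between 0.113 and 0.273 CPM depending on the library and covers counting error only. Whether these cells made interferon was therefore not detectable in their mRNA at this depth.

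Of the 6 receptor genes, 5 were well expressed in every library, and Ifnlr1 of the type III receptor, with at most 1 count per library, was not tested. Ifngr1, the ligand-binding chain of the interferon gamma receptor, had 250.2, 242 and 249 CPM in control and 178, 167 and 173 CPM in AclyM-KO libraries. Both groups were tight and far apart, with means of 247 ± 4.36 and 173 ± 5.44 CPM (SD, n = 3) and a log2 fold change of -0.52 (SE 0.062, edgeR adjusted p = 4.41e-04). Its partner Ifngr2 had 153, 148 and 149.8 CPM in control and 135, 124 and 145 CPM in AclyM-KO libraries, lower without overlap, and did not pass the test (log2 fold change -0.16, adjusted p = 0.183). Ifnar2, the chain of the type I receptor that binds interferon most tightly, had 159, 156 and 155 CPM in control and 120.0, 116 and 131 CPM in AclyM-KO libraries. The log2 fold change was -0.36 (SE 0.069, edgeR adjusted p = 0.0066) and -0.32 without AclyM-KO replicate 2. Ifnar1 had 198 ± 7.44 CPM in control and 204 ± 6.01 CPM in AclyM-KO libraries (SD, n = 3), a log2 fold change of 0.04 with a 95% interval from -0.10 to 0.18.

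Among kinases, STATs and interferon regulatory factors, Irf8 was lower. Irf8, a factor that directs monocyte and dendritic cell development, had 291, 269 and 279 CPM in control and 214, 162 and 197 CPM in AclyM-KO libraries. Replicate 2 was the lowest, the reverse of its place in most of the 44 genes, and the log2 fold change was -0.55 (SE 0.093, edgeR adjusted p = 0.00326) and -0.44 without it. Jak1 was close to the threshold with a log2 fold change of -0.20 (adjusted p = 0.0515). Of the 14 sensors and adaptors, 2 were lower, beside 5.65% lower among all genes tested. Ikbke, a kinase that activates Irf3 and Irf7, had 151, 148 and 139 CPM in control and 125, 99.8 and 117 CPM in AclyM-KO libraries (log2 fold change -0.37, SE 0.086, edgeR adjusted p = 0.0179, and -0.27 without replicate 2). Mavs, the mitochondrial adaptor of RIG-I and MDA5, had 75.0, 71.6 and 77.5 CPM in control and 62.8, 45.2 and 60.6 CPM in AclyM-KO libraries (log2 fold change -0.42, SE 0.113, edgeR adjusted p = 0.032). Without AclyM-KO replicate 2 the difference in Mavs was -0.27 on the log2 scale (adjusted p = 0.00681), and with 1 control library left out its adjusted p was up to 0.131 and that of Ikbke up to 0.0921, so that neither passed. In both genes all AclyM-KO libraries were below all controls and replicate 2 was the lowest. None of the 7 negative regulators tested passed in edgeR, and none was called by DESeq2 or limma-voom. At an unadjusted p under 0.05, 1 was higher in edgeR, beside 13.9% higher among all genes tested.

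**Figure D5:**
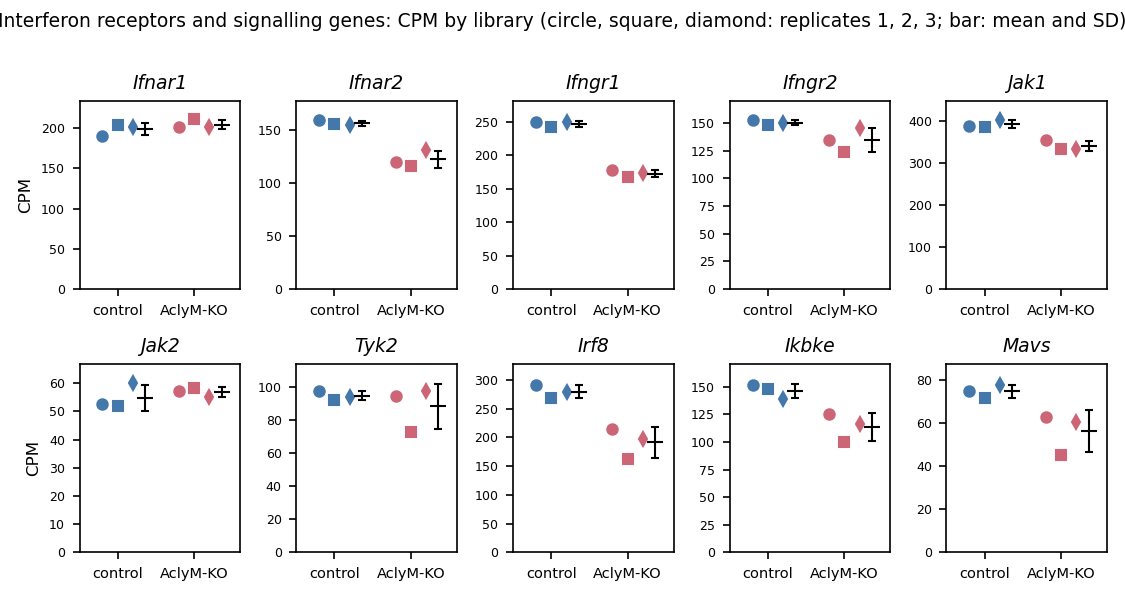
CPM of 10 receptor and signalling genes in each library (each panel starts at 0, symbols are replicates 1, 2 and 3, black bars are the mean and SD, n = 3). Ifngr1 and Ifnar2 are separated between the groups, at 167 to 178 against 242 to 250.2 CPM and at 116 to 131 against 155 to 159 CPM, while Ifnar1 overlaps.

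Interferon-stimulated genes outside the 44 were read from a list of 75 in the table, of which 70 were tested. Here 4 genes were higher and 7 lower in AclyM-KO macrophages, where over all genes 6.7% were higher and 5.65% lower, and the median log2 fold change was 0.01. Siglec1, a sialic acid receptor of macrophages that binds virus particles, fell most clearly, with 284, 276 and 301 CPM in control and 165, 135 and 155 CPM in AclyM-KO libraries (log2 fold change -0.92, SE 0.082, edgeR adjusted p = 3.66e-05). Ly6e, a membrane protein that limits virus entry, had 287, 240.1 and 258 CPM in control and 145, 169 and 178 CPM in AclyM-KO libraries (log2 fold change -0.67, edgeR adjusted p = 9.48e-04). Further genes of the Gbp family were among the lower ones, with log2 fold changes of -0.93 for Gbp8 (adjusted p = 0.0102) and -0.35 for Gbp9 (adjusted p = 0.0357), whose exons overlap on the same strand. Cd274, Epsti1 and Ifitm2 completed the lower genes, at -0.28, -0.33 and -0.37. The higher genes were Ifi27 (0.44), Tor3a (0.35), Helz2 (0.65) and Oas1g (0.65). Without AclyM-KO replicate 2, 15 of the 70 were lower and 4 higher (8.92% and 9.56% of all genes), and Oas1g was no longer among them (edgeR adjusted p = 0.111). That library was the highest of 6 in 38 of the 70 genes (54.3%, against 28.7% of all genes).

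The 10 genes that passed the test lie at separate places in mm10, except that Oas1a lies near Oas3 and Gbp3 near Gbp7. On chromosome 5 are Oas1a (NM_145211, 120896256 to 120907544), Oas3 (NM_145226, 120753098 to 120777684) and Oasl2 (NM_011854, 114896926 to 114912245). On chromosome 3 are Gbp3 (NM_018734, 142560016 to 142573213) and Gbp7 (NM_001083312, 142530336 to 142550151). Chromosome 11 holds Ifi35 (NM_027320, 101448412 to 101458701) and Lgals3bp (NM_011150, 118392747 to 118401959). Usp18 (NM_011909) is on chromosome 6 at 121245906 to 121270917, Cmpk2 (NM_020557) on chromosome 12 at 26469117 to 26479837 and Stat2 (NM_019963) on chromosome 10 at 128270498 to 128292853.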

How the data were processed

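RNA of unstimulated BMDMs of 3 control and 3 AclyM-KO libraries was analysed. The submitters prepared strand-specific mRNA libraries, aligned reads to mm10 with STAR 2.5.2b, removed alignments of low mapping quality and summed reads per RefSeq transcript with HOMER2 at its default settings. The authors deposited raw counts, neither normalized nor pooled, and 6 further columns of values were not used here. Which RefSeq release was counted is not given in the sources used here, and what the defaults mean for strand and introns is not spelled out there. Reads on shared exons can be counted in several transcripts, so the transcript with the highest total represented each gene. The genotypes were tested with edgeR 4.0.16 in R 4.3.3 (TMM, filterByExpr, quasi-likelihood test, genotype as the single factor) and Benjamini-Hochberg adjustment over 11470 genes. The biological coefficient of variation was 8.90%. RPKM used TMM-normalized library sizes and the transcript's exon length in GENCODE M21. The test was tried on simulated data first. The 44 genes and all other lists were chosen with earlier results of these data known. Named were all genes of the 44 past the threshold, the 5 others with the largest fold change, the most abundant of each role group, and the pathway and other interferon-stimulated genes past the threshold, besides Ifnb1 and the receptors. Results that need certain withheld items are left out of the text and stay in the counts of the lists. Further genes of the 44 were named after their values were seen. The alternatives were DESeq2 1.42.0, limma-voom (limma 3.58.1) with sample weights, RLE size factors, total counts, other filters, the longest transcript, a thinned AclyM-KO replicate 2, the replicate number as a block, and each library left out.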

Additional observations from a re-analysis of the deposited data

How the results depend on the processing

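Counts of interferon-stimulated genes past the threshold depended most on which library was left out. Among the 44 genes, leaving out any 1 library gave 1 to 16 higher and 1 to 3 lower, against 7 and 3 with all libraries. Over all genes, 3.13% to 9.56% were higher and 2.02% to 8.92% lower in the fits with a library left out. Without a filter on low counts 12 of the 44 were higher and 4 lower (5.98% and 5.09% of all genes). Of the signalling genes 3 to 7 were lower. Of the other interferon-stimulated genes 2 to 15 were lower and 1 to 7 higher, and limma-voom called 14 as lower (9.39% of all genes). Over all genes, 598 to 2136 passed with a library left out, 2187 with limma-voom and 1416 in the fit reported. The median log2 fold change of the 44 genes was 0.049 to 0.43 with a library left out, the lowest without AclyM-KO replicate 2. DESeq2 did not call Oasl2 (adjusted p = 0.192), and total counts alone did not call Lgals3bp (adjusted p = 0.058). With the replicate block, that is the replicate number as a factor, 9 were higher and 4 lower (7.52% and 6.29% of all genes), Herc6, Oas2 and Irf1 being added, and 1583 of all genes passed. The same-numbered libraries correlated at 0.090, 0.114 and -0.047 in their deviations from the group means. Those of numbers 1 and 2 had the highest values of all pairs of a control and an AclyM-KO library. Those of number 3 did not correlate best with each other. With 3 libraries per group these values cannot settle whether same-numbered libraries belong together, and this was not tested.

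Some genes that did not pass the test took the other sign under some alternatives. With limma-voom this was Isg15 (-0.028), Parp9 (-0.12), Parp14 (-0.051), Xaf1 (-0.15) and Trim30a (-0.12). With DESeq2 it was Parp9 (-0.0022) and Trim30a (-0.00049), with the replicate block Parp9 (-0.0052) and Trim30a (-0.011), with total counts Bst2 (0.032), and with the thinned library Parp9 (-0.041). With a library left out, log2 fold changes lay between -0.20 and 0.53 for Isg15, -0.028 and 0.38 for Mx1, -0.039 and 0.049 for Bst2, -0.22 and 0.043 for Ifih1, -0.16 and 0.092 for Parp9, -0.094 and 0.15 for Parp14, -0.37 and 0.11 for Ifi44, -0.30 and 0.55 for Xaf1, -0.18 and 0.11 for Trim30a, and -0.045 and 0.34 for Slfn5. The cause of these changes was not tested. For genes near 1 CPM, such as Isg20, depth limits the precision.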
